A study of Mus musculus with 22 samples.

Results

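The genes described here are the vitamin D receptor gene Vdr, the calcitriol-degrading hydroxylase gene Cyp24a1, the retinoid X receptor genes Rxra and Rxrb, the corepressor gene Ncor1 and the coactivator genes Ncoa1, Ncoa2 and Ncoa3. They were chosen by symbol, as the core of the receptor complex and its best known target, and make up 8 of the 49671 genes in the count table. All 8 were found in the table and all 8 passed the filter on low counts, Cyp24a1 only through the libraries with calcitriol. RNA sequencing had been done on mouse TH2 cells, T helper cells polarized in culture toward the type 2 cytokine programme, to find what calcitriol changes in them. In 11 libraries the cells had received 100 nM calcitriol, the active hormone made from vitamin D, for the last 24 hours before harvest on day 5. In the other 11 libraries they had received 2% ethanol as the vehicle control. Whether the calcitriol cultures held the same ethanol is not stated, so a difference in ethanol could not be told apart from calcitriol. Both groups were wild type cells from male and female Balb/c mice. The labels give an age of 6 to 8 weeks for mice obtained from a breeder, and say that the mice were bred for 2 generations on feed with 400, 1000 or 4000 IU of vitamin D3 per kg. The labels tie no library to a mouse, sex, diet or culture. Replicate numbers are therefore names only, and a p-value here reflects how far libraries of a group differ, whether for technical or other reasons.

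The vitamin D receptor is a ligand-activated transcription factor of the nuclear receptor family. Bound to calcitriol it pairs with a retinoid X receptor, and the pair binds hexamer half-sites in DNA, classically as direct repeats with a 3-base spacer (DR3). Without ligand such receptors can hold corepressors such as NCOR1, which recruits histone deacetylase. With ligand they recruit p160 coactivators, encoded by Ncoa1, Ncoa2 and Ncoa3, which bring in histone acetyltransferases. CYP24A1 hydroxylates calcitriol and starts its breakdown, and its gene is the most widely used readout of receptor activity.

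Promoter sequences are shown for Vdr and Rxra because these were the members whose counts fell with calcitriol. The sequences come from the RefSeq table of build GRCm38.p6, which held 5 of the 8 members, Vdr, Rxra, Rxrb, Ncor1 and Ncoa1, and each is the 250 bases before an annotated start, 5′ to 3′ on the gene's strand. Capitals mark matches on either strand to a nuclear receptor half-site or to a GC box. The half-site was searched as the form AGGTCA, as the form AGTTCA, as the form GGGTCA and as the form GGTTCA. The GC box, the element bound by SP1-type factors, was searched as GGGCGG. Marked motifs do not overlap one another in these windows.
Vdr, chr15:97908297-97908546, minus strand: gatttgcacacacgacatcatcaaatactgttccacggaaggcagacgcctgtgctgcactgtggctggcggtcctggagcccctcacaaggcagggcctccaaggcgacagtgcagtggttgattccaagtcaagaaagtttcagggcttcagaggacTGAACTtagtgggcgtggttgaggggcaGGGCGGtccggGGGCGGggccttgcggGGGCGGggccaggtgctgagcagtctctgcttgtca
Rxra start 1, chr2:27676951-27677200, plus strand: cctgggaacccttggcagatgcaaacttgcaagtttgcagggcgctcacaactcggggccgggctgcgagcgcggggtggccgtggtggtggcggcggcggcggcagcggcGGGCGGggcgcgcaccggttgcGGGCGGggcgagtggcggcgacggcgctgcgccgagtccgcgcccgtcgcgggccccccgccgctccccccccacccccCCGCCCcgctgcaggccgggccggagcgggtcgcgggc
Rxra start 2, chr2:27709042-27709291, plus strand: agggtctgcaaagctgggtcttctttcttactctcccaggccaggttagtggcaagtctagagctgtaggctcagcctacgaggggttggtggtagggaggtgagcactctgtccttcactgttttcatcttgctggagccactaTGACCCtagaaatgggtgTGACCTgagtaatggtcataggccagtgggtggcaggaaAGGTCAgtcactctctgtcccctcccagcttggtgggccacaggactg

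The Vdr window held 1 half-site and 3 GC boxes. It overlaps an annotated Vdr exon and lies within the annotated gene, which on the minus strand begins further upstream, at 97910630. The first Rxra start had 3 GC boxes and no half-site, with a GC content of 81.2%, and the second had 3 half-sites and no GC box, with a GC content of 55.2%. A DR3, 2 such half-sites in the same orientation with 3 bases between them, was not present in any of the 8 windows of the 5 members. A cyclic AMP response element (TGACGTCA) and an E-box (CACGTG) were also searched and not found in them. Across all 32851 promoter windows of the table, 38.6% held a half-site, 32.7% a GC box, 0.0396% a DR3, 1.55% a cyclic AMP response element and 6.02% an E-box. Among 11320 windows of genes that passed the filter on counts, a GC box was present in 58.3% and a half-site in 33.2%, so both motifs are common. A match describes letters only, and distal sites were not searched.

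Libraries held between 3214171 and 20258430 counts, the median being 7504710. Levels are CPM, a gene's counts as a fixed proportion of its library's total after scaling by the trimmed mean of M values (TMM), given as mean ± SD, and changes are log2 of calcitriol over vehicle ± SE from edgeR's quasi-likelihood test over all 11905 genes that passed the filter, with Benjamini-Hochberg adjustment. Replicates 1 and 2 of each group stood apart from the other libraries in an earlier analysis of these counts, and values that rest on them are given with and without them. The cells carried T cell and TH2 transcripts in both groups, with Cd4 at 755 ± 37.7 CPM in vehicle and 690.0 ± 45.2 CPM in calcitriol libraries and Gata3 at 86.5 ± 9.56 and 97.2 ± 15.1 CPM. Of the other TH2 markers, Il13 was at 333.5 ± 103.6 and 203.0 ± 105.9 CPM and Ccr8 at 40.6 ± 12.0 and 38.6 ± 5.37 CPM. Il4 was at 86.8 ± 8.00 and 96.7 ± 17.8 CPM and Il5 at 44.6 ± 22.4 and 62.5 ± 21.1 CPM. The TH2 marker Il1rl1 was below the filter. Summed macrophage and monocyte markers reached at most 1.71 CPM in any library, summed B cell markers at most 2.95 CPM and summed NK markers at most 0.329 CPM, with Ncr1 at 0. Of the dendritic list, H2-Ab1 was at 89.0 ± 15.2 and 96.9 ± 17.6 CPM and Itgax at 3.38 ± 1.37 and 3.34 ± 1.19 CPM, while Xcr1 had 3 counts in all. Of the CD8 T cell markers, Cd8b1 was at 5.98 ± 1.14 and 5.65 ± 1.89 CPM while Cd8a had 10 counts in all. Of the 2 epithelial markers, Epcam was at 9.74 ± 3.28 CPM in vehicle and 22.2 ± 4.99 CPM in calcitriol libraries while Krt8 had 3 counts in all. The part of Epcam-carrying cells in the results was not tested.

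With calcitriol, Cyp24a1 went from no count to a moderate level, Vdr and Rxra fell, Ncoa2 and Ncoa3 rose by small amounts, and Rxrb, Ncor1 and Ncoa1 did not pass the test. Of the 8 members, 5 were called at an adjusted p of 0.05, against 31.5% of all genes tested. Of these, 3 were higher, where 16.1% of all genes were, and 2 were lower, where 15.5% were. Only Cyp24a1 had values that did not overlap between the groups, a pattern seen in 4.36% of genes tested. Cyp24a1 is among the 5 called and the 3 higher, and it passed the filter only through the calcitriol libraries. Once it was tested, its call, direction and lack of overlap were close to fixed, so they add nothing to these shares. In the 11 libraries at or below the median depth, which include replicates 1 and 2 of both groups, the changes of Vdr (-1.20, adjusted p = 0.117), Rxra (-0.60, adjusted p = 0.0653) and Ncoa2 (0.20, adjusted p = 0.129) kept their direction and did not pass the test. The median log2 change was -0.05 over the 8 members, with the fitted value of Cyp24a1 included, and -0.01 over all genes tested. In bulk RNA, fewer cells expressing a gene and less RNA per cell cannot be told apart.

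**Figure D1:**
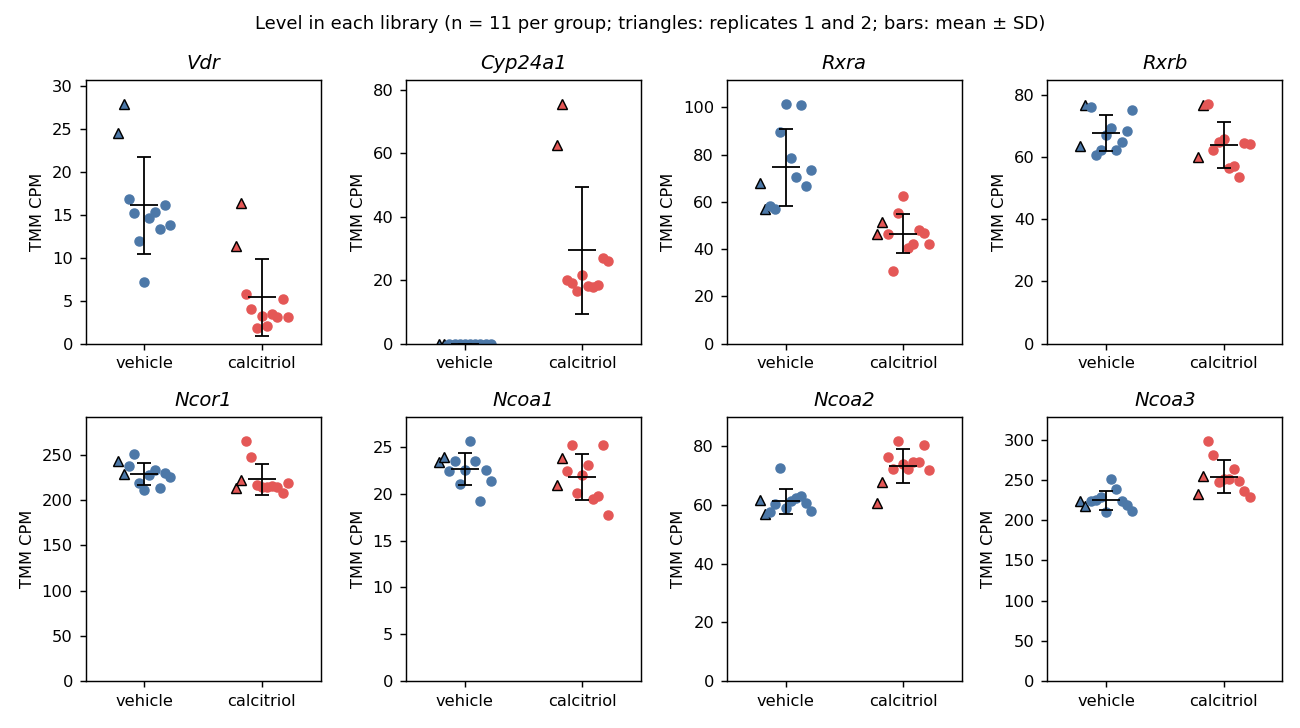
TMM-scaled CPM of each of the 8 genes in each of the 22 libraries (vertical axes, linear and starting at 0), with vehicle in blue and calcitriol in red, bars for mean ± SD (n = 11) and triangles for replicates 1 and 2. Vdr and Rxra sit lower and Ncoa2 and Ncoa3 higher with calcitriol, Cyp24a1 is at 0 in all 11 vehicle libraries, and the other 3 genes overlap widely.

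Vdr (ENSMUSG00000022479, chromosome 15, 97854425 to 97910630, minus strand, GRCm38) encodes the receptor itself. In vehicle libraries its lowest, median and highest levels were 7.20, 15.2 and 28.0 CPM, and in calcitriol libraries they were 1.86, 3.42 and 16.4 CPM. The groups overlapped only through calcitriol replicates 1 and 2, at 11.3 and 16.4 CPM. The other 9 calcitriol libraries lay below every vehicle library. Vdr fell by 1.73 ± 0.31 on the log2 scale, a level 3.32-fold lower, from 16.1 ± 5.70 to 5.40 ± 4.50 CPM (n = 11 per group, adjusted p = 0.000122).

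Among Vdr, Rxra and Rxrb, Vdr varied most between libraries. Its coefficient of variation was 35.4% in vehicle and 83.3% in calcitriol libraries. Vehicle replicates 1 and 2, at 24.6 and 28.0 CPM, were the highest of their group, as calcitriol replicates 1 and 2 were of theirs, and vehicle replicate 6 was the lowest. Without these 4 libraries the ranges separated, with 13.9 ± 2.90 CPM (7.20 to 16.8, n = 9) in vehicle and 3.51 ± 1.30 CPM (1.86 to 5.76, n = 9) in calcitriol libraries, and the fall was 2.01 on the log2 scale (edgeR, adjusted p = 9.1e-09). Few reads stand behind the low values. The lowest library held 17 Vdr counts, which gives a 95% Poisson interval of 1.08 to 2.98 CPM, and calcitriol replicate 2, the shallowest library of all, held 51, which gives 12.2 to 21.6 CPM. These intervals cover counting error only and do not meet.

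Cyp24a1 (ENSMUSG00000038567, chromosome 2, 170482708 to 170497145, minus strand) had 0 counts in the 11 vehicle libraries together and 2381 in the 11 calcitriol libraries. Its lowest, median and highest calcitriol levels were 16.6, 20.1 and 75.7 CPM (29.4 ± 20.2, n = 11). Replicates 1 and 2 were high, at 62.7 and 75.7 CPM, and the other 9 libraries fell between 16.6 and 27.0 CPM (20.5 ± 3.68). Against a floor of 3 counts over the vehicle group, or 0.0311 CPM, Cyp24a1 was at least 825-fold higher with calcitriol, and at least 572-fold higher without replicates 1 and 2 of both groups (edgeR, adjusted p = 1.93e-06 over all libraries). The bound was 406-fold in the libraries above the median depth alone and 449-fold in those at or below it. In single vehicle libraries a count of 0 allows up to 0.145 CPM in the deepest and 0.801 CPM in the shallowest, still below every calcitriol value. Cyp24a1 shares 83 exon bases with Pfdn4, a prefoldin subunit gene on the opposite strand. Pfdn4 had 2383 vehicle counts while Cyp24a1 had none, and stood at 25.2 ± 3.12 and 23.6 ± 2.74 CPM (adjusted p = 0.385), so its reads did not enter the Cyp24a1 count in vehicle libraries.

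Rxra (ENSMUSG00000015846, chromosome 2, 27676440 to 27762957, plus strand) encodes a retinoid X receptor, the obligate partner of the vitamin D receptor on DNA. Its lowest, median and highest levels were 56.8, 70.6 and 101.5 CPM in vehicle and 30.7, 46.3 and 62.2 CPM in calcitriol libraries. The overlap came from 1 library, calcitriol replicate 6, and the other 10 calcitriol libraries lay below every vehicle library. Rxra fell by 0.68 ± 0.11 on the log2 scale, 1.60-fold, from 74.7 ± 16.4 to 46.5 ± 8.26 CPM (adjusted p = 4.27e-05). Unlike Vdr, it was not raised in replicates 1 and 2, which stood at 68.2 and 57.0 CPM in vehicle and 46.3 and 51.5 CPM in calcitriol libraries.

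Rxrb (ENSMUSG00000039656, chromosome 17, 34031812 to 34038399, plus strand), the other retinoid X receptor expressed here, ranged from 60.8 to 76.8 CPM around a median of 67.0 in vehicle and from 53.6 to 77.2 CPM around 64.2 in calcitriol libraries. The groups overlapped over most of their ranges. The log2 difference was -0.09 ± 0.06 (67.9 ± 5.84 against 63.9 ± 7.51 CPM, adjusted p = 0.271). Rxrg, the third family member, had 3 vehicle and 11 calcitriol counts and was below the filter.

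Ncor1 (ENSMUSG00000018501, chromosome 11, 62316426 to 62458541, minus strand) encodes a corepressor that bridges unliganded nuclear receptors to histone deacetylase. It ranged from 211 to 251 CPM in vehicle and from 208 to 265 CPM in calcitriol libraries, with medians of 229 and 216. Calcitriol replicates 3 and 4 were the highest of their group and the other 9 stayed within 208 to 223 CPM. The log2 difference was -0.04 ± 0.04 (229 ± 12.2 against 223 ± 17.4 CPM, adjusted p = 0.531).

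Among the p160 coactivators, Ncoa2 and Ncoa3 rose and Ncoa1 did not pass the test. Ncoa2 (ENSMUSG00000005886, chromosome 1, 13139105 to 13374083, minus strand) had its lowest, median and highest levels at 57.0, 60.6 and 72.6 CPM in vehicle and at 60.6, 73.9 and 81.8 CPM in calcitriol libraries. All 11 calcitriol libraries exceeded the vehicle median and 6 exceeded every vehicle library, while vehicle replicate 5 stood alone at the top of its group. The rise was 0.27 ± 0.05 on the log2 scale, 1.20-fold, from 61.2 ± 4.28 to 73.4 ± 5.78 CPM (adjusted p = 0.000149). Calcitriol replicates 1 and 2, the libraries with the most Vdr and Cyp24a1, had the least Ncoa2 of their group, at 60.6 and 68.0 CPM.

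Ncoa3 (ENSMUSG00000027678, chromosome 2, 165992636 to 166073242, plus strand) ranged from 210.1 to 251 CPM around 224 in vehicle and from 228 to 298.5 CPM around 251 in calcitriol libraries. Again all 11 calcitriol libraries exceeded the vehicle median and 6 exceeded every vehicle library, with replicates 3 and 4 the highest, as for Ncor1. The rise was 0.18 ± 0.05 on the log2 scale, 1.13-fold, from 225 ± 11.8 to 254 ± 20.8 CPM (adjusted p = 0.00404). It is the least secure of the 5 calls, since it was lost with libraries scaled by total count alone (0.10, adjusted p = 0.0629) and in the libraries above the median depth (0.11, adjusted p = 0.186). Ncoa3 shares 154 exon bases with Sulf2 on the opposite strand, which stood at 2.75 ± 1.23 and 2.98 ± 0.753 CPM.

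Ncoa1 (ENSMUSG00000020647, chromosome 12, 4247362 to 4477182, minus strand) ranged from 19.2 to 25.6 CPM around 22.6 in vehicle and from 17.8 to 25.3 CPM around 22.01 in calcitriol libraries. The groups overlapped almost wholly, with a log2 difference of -0.06 ± 0.07 (22.7 ± 1.68 against 21.8 ± 2.44 CPM, adjusted p = 0.539).

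Levels of different genes were compared per kb of annotated exon. In vehicle libraries the order of mean CPM per kb was Ncoa3 at 28.5, Ncor1 at 17.9, Rxrb at 17.1, Rxra at 13.7, Ncoa2 at 3.91, Vdr at 2.85, Ncoa1 at 2.64 and Cyp24a1 at 0. Neighbours in this order had overlapping ranges, except that Ncoa3 was above Ncor1, Rxra above Ncoa2 and Ncoa1 above Cyp24a1 in all libraries. In calcitriol libraries Cyp24a1 followed Rxra, at means of 8.26 and 8.52 CPM per kb, with Rxra above it in 9 of 11 libraries. The closeness of these means rests on replicates 1 and 2, without which they were 5.77 and 8.42 CPM per kb. Vdr was the lowest of the 8 at 0.956, below Ncoa1 at 2.54 in 10 of 11 libraries. In vehicle libraries Vdr was above Ncoa1 in 5 of 11. Without replicates 1 and 2 the vehicle means were 2.45 for Vdr and 2.62 for Ncoa1, so their vehicle order rests on those replicates. Ncoa3 at 32.2, Ncor1 at 17.4 and Rxrb at 16.1 kept their places at the top, and Ncoa2 stood at 4.69.

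Ratios between members within a library do not depend on the scaling of libraries, and 6 were tested on log2 counts per kb with two-sided permutation tests. Vdr transcripts became scarcer relative to those of the receptor's partners, and protein was not measured. Vdr per Rxrb transcript was 0.159 in vehicle and 0.0480 in calcitriol libraries as the geometric mean, a log2 difference of -1.73 (n = 11 per group, adjusted p = 0.00033). Per Rxra the values were 0.202 and 0.0915, a log2 difference of -1.14 (adjusted p = 0.00883), smaller since Rxra fell too. The balance between the partner transcripts also moved, with Rxra per Rxrb at 0.786 and 0.525 (log2 difference -0.58, adjusted p = 0.0006). Rxra exceeded Rxrb per kb in vehicle replicates 5, 6 and 9 and in no calcitriol library.

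On the cofactor side, Ncor1 relative to the summed Ncoa1, Ncoa2 and Ncoa3 ran from -1.12 to -0.84 on the log2 scale around -0.93 in vehicle libraries and from -1.27 to -1.06 around -1.20 in calcitriol libraries. The ranges met only at their edges. The geometric mean ratio went from 0.510 to 0.441 (log2 difference -0.21, adjusted p = 0.00012), the smallest p of the 6 although Ncor1 itself did not pass the test between groups. The sum is mostly Ncoa3, at 28.5 CPM per kb in vehicle libraries against 3.91 for Ncoa2 and 2.64 for Ncoa1. The ratio therefore largely sets Ncor1 against Ncoa3. Ncoa1 per Ncoa2 went from 0.676 to 0.541 (log2 difference -0.32, adjusted p = 0.00138). Ncoa3 per Ncoa2 was 7.28 and 6.86, a log2 difference of -0.09 that did not pass the test (adjusted p = 0.113). Without replicates 1 and 2 of both groups the 6 log2 differences kept their direction and their side of the threshold.

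**Figure D2:**
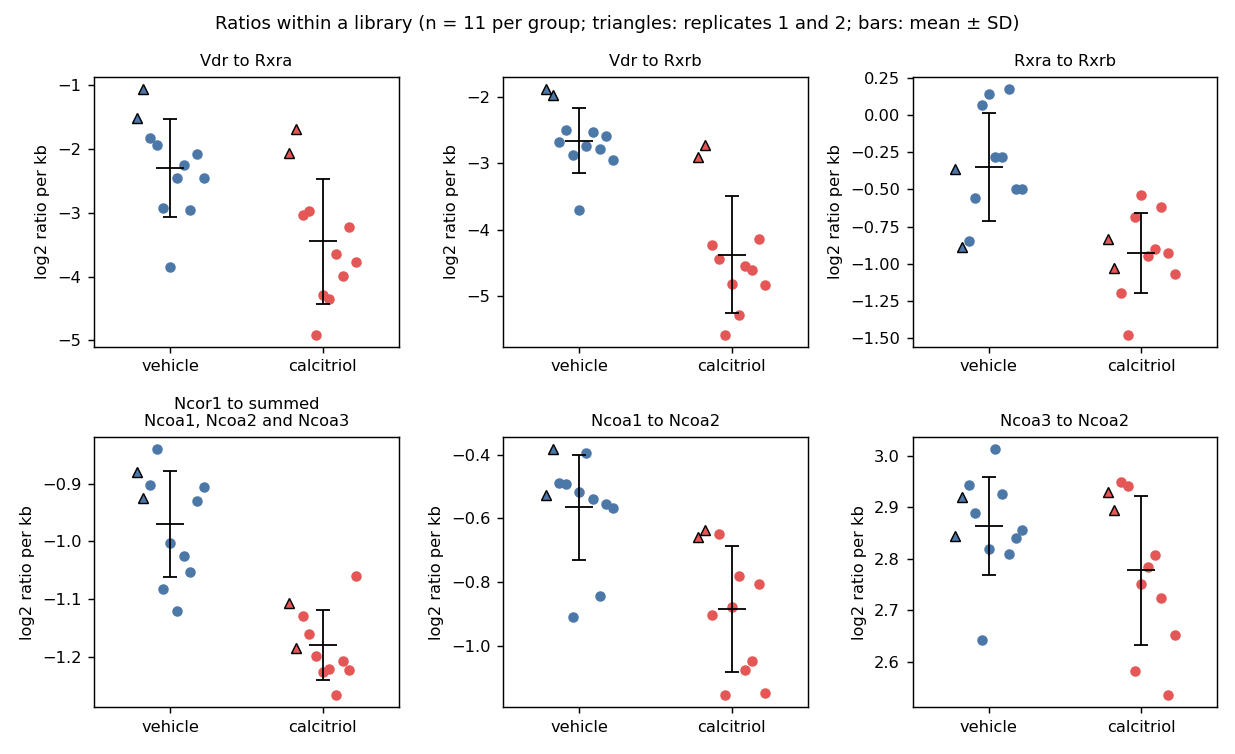
Log2 ratio per kb between members within each library (vertical axes) for the 6 ratios tested, vehicle in blue and calcitriol in red, with mean ± SD (n = 11) and triangles for replicates 1 and 2. The mean log2 difference is -1.73 for Vdr to Rxrb and -0.21 for Ncor1 to the summed coactivators, whose ranges meet only at their edges.

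Within the calcitriol group, the libraries with more Vdr were those with more Cyp24a1, and this rested on a pair of libraries. Replicates 1 and 2 were highest for both genes. Over the other 9 libraries, Pearson's r of log2(CPM + 0.5) was 0.51 (exact permutation test, p = 0.154) and Spearman's rho 0.57 (exact permutation test, p = 0.121), a relation not shown to differ from none. With the pair included, r was 0.91 (n = 11, permutation test, p = 0.00084, adjusted p = 0.0213 over 49 pairs) and rho 0.76 (permutation test, p = 0.00836, adjusted p = 0.128). Leaving out either of the pair alone gave 0.88 and 0.83. Counts of Cyp24a1 per count of Vdr, both in CPM, lay between 3.49 (replicate 3) and 9.10 (replicate 7), and replicates 1 and 2, at 5.53 and 4.61, were within the range of the others. Across these libraries the highest Vdr level was 8.83 times the lowest, and the highest Cyp24a1 level 4.55 times.

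**Figure D3:**
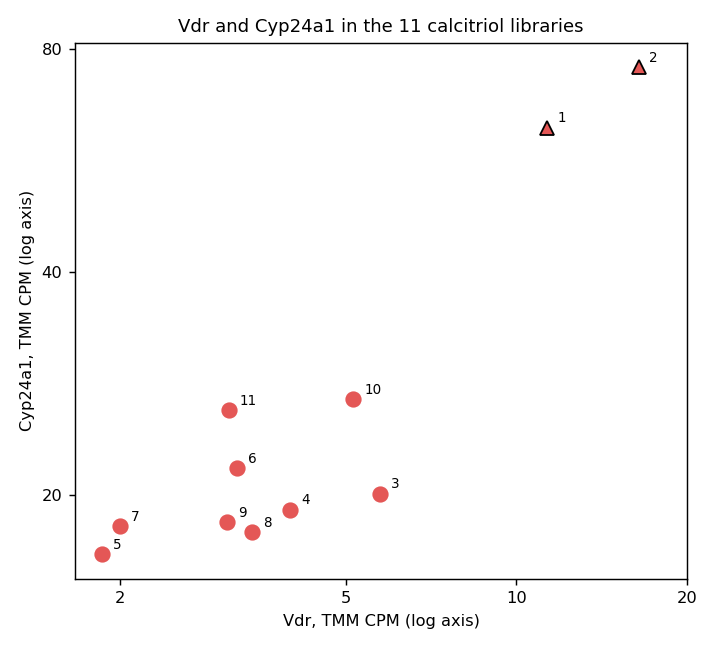
Vdr against Cyp24a1 in the 11 calcitriol libraries, both in TMM-scaled CPM on log axes, labelled by replicate number with triangles for replicates 1 and 2. The pair at upper right carries the relation, with r = 0.91 over 11 libraries and 0.51 over the other 9.

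No relation between depth and a member passed adjustment. In the calcitriol group log2 total count had r = -0.72 with Vdr (permutation test, p = 0.0136, adjusted p = 0.102 over 15 relations, rho = -0.56), -0.68 with Cyp24a1 (p = 0.0322, adjusted p = 0.161, rho = -0.46) and -0.76 with Rxrb (p = 0.00528, adjusted p = 0.0792, rho = -0.68). In vehicle libraries the r between depth and Vdr was 0.08 (permutation test, p = 0.818). Given log2 total count, the partial r of Vdr and Cyp24a1 was 0.83 over the 11 libraries. That value includes replicates 1 and 2, on which the relation rested, and no partial r is given without them.

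Over all pairs of members, 21 in vehicle and 28 in calcitriol libraries, 8 had an unadjusted p below 0.05 and 3 an adjusted p below 0.05 by Pearson's r, and 0 by Spearman's rho. The permutations treat the libraries as independent, which they may not be. Libraries of a group that were each other's closest by correlation were joined, giving 7 sets per group, some of them single libraries. This joining used no threshold on likeness, so the sets do not show how alike the libraries were. The clearest relation was an inverse one between Rxra and Ncor1 in vehicle libraries, with r = -0.86 (n = 11, permutation test, p = 0.00087, adjusted p = 0.0213) and rho = -0.85 (p = 0.00166, adjusted p = 0.0813). Vehicle replicates 6 and 9, with the most Rxra at 101.5 and 100.8 CPM, had Ncor1 at 211 and 213 CPM, and replicate 4, with the least Rxra at 56.8 CPM, had the most Ncor1 at 251 CPM. Without replicates 6 and 9, the 2 farthest from the median, r was -0.70 (exact permutation test, p = 0.0337). Without replicates 1 and 2 it was -0.95 (exact permutation test, p = 3.03e-05, adjusted p = 0.00149), the one pair past the threshold among those 9-library relations. In calcitriol libraries the same pair gave r = -0.39 (permutation test, p = 0.232), and the difference between the groups was not tested.

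Vdr and Rxra also ran opposite to one another in vehicle libraries, with r = -0.74 (permutation test, p = 0.00779, adjusted p = 0.0954) and rho = -0.82. Vehicle replicate 6 had the least Vdr and the most Rxra, and replicate 2 the most Vdr and nearly the least Rxra. Without those 2 libraries r was -0.51 (exact permutation test, p = 0.16), while without replicates 1 and 2 it was -0.75 (exact permutation test, p = 0.00236, adjusted p = 0.0579) and rho -0.87. In calcitriol libraries, where both genes were lower, r was 0.08 (permutation test, p = 0.812). Vdr and Ncor1 in vehicle libraries gave r = 0.62 (permutation test, p = 0.0366, adjusted p = 0.252), and Rxrb and Ncoa2 gave -0.67 (p = 0.0116, adjusted p = 0.11).

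In calcitriol libraries Ncor1 and Ncoa3 rose and fell together, with r = 0.86 (permutation test, p = 0.00213, adjusted p = 0.0348) but rho = 0.59 (p = 0.0606). Replicates 3 and 4, at 265 and 247 CPM of Ncor1 and 298.5 and 281 CPM of Ncoa3, carried it, and without them r was 0.29 (exact permutation test, p = 0.456), while without replicates 1 and 2 it was 0.86 (exact permutation test, p = 0.00586). Ncoa2 ran opposite to Cyp24a1, with r = -0.74 (p = 0.0135, adjusted p = 0.11 by permutation test), and to Vdr, with r = -0.63 (p = 0.0411, adjusted p = 0.252 by permutation test). Without calcitriol replicates 1 and 2 these were -0.02 and 0.07, so both rest on that pair.

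**Figure D4:**
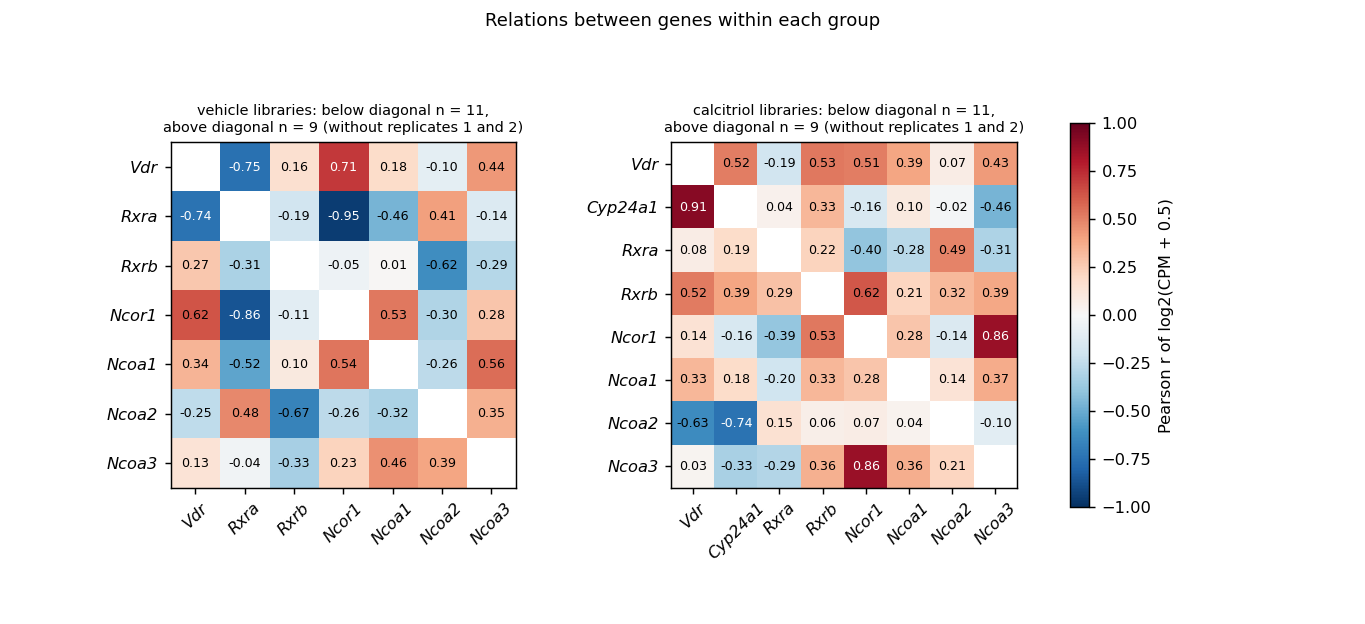
Pearson's r between members within the vehicle (left) and calcitriol (right) libraries, from blue (-1) to red (1), with all 11 libraries below the diagonal and the 9 without replicates 1 and 2 above it. Rxra with Ncor1 in vehicle libraries is -0.86 below and -0.95 above the diagonal, while Vdr with Cyp24a1 in calcitriol libraries is 0.91 below and 0.51 above.

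Of 13 further coactivator genes of nuclear receptors, all tested, 3 rose, 2 fell and 8 did not pass the test, with a median log2 change of -0.03. These shares are near those of all genes tested, 16.1% higher and 15.5% lower. The genes of the arginine methyltransferases that act with p160 coactivators were the ones that fell, Prmt1 by 0.45 ± 0.08 (65.5 ± 8.88 to 47.9 ± 5.41 CPM, adjusted p = 3.40e-05) and Carm1 by 0.39 ± 0.07 (26.2 ± 3.55 to 19.96 ± 1.25 CPM, with no overlap between groups, adjusted p = 6.56e-05). Crebbp, which encodes the acetyltransferase CBP, rose by 0.28 ± 0.06 (25.4 ± 2.10 to 30.7 ± 2.21 CPM, adjusted p = 0.000377), while its paralog Ep300 was at 34.8 ± 2.98 and 34.7 ± 3.70 CPM (adjusted p = 0.987). Kat2b and Snw1 were the other genes that rose, by 0.16 and 0.18 on the log2 scale, and they lost their calls in 14 and 3 of 35 alternative settings.

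Of 10 corepressor genes, 9 were tested, of which 3 rose, 2 fell and 4 did not pass the test, where 16.1% of all genes tested rose and 15.5% fell, with a median log2 change of 0.04. Nrip1, which encodes the ligand-dependent corepressor RIP140, had the widest change of these cofactors, from 89.9 ± 23.2 to 168.9 ± 29.9 CPM (0.91 ± 0.13, adjusted p = 6.75e-06). Lcor, another ligand-dependent corepressor gene, rose by 0.31 ± 0.08 (9.58 ± 1.07 to 12.0 ± 1.499 CPM, adjusted p = 0.00508). Tbl1x, a subunit of the NCOR complex, fell by 0.27 ± 0.08 (26.2 ± 3.04 to 21.5 ± 2.76 CPM, adjusted p = 0.00871). Hdac3, the deacetylase of that complex, was at 85.8 ± 7.14 and 88.3 ± 7.96 CPM and did not pass the test (adjusted p = 0.613).

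Of 14 other receptor genes whose products pair with RXR (or, for Rxrg, are RXR), 7 were tested, of which 0 rose and 1 fell, against the same 16.1% and 15.5% of all genes, with a median log2 change of -0.07. That gene was Pparg, which encodes the lipid-sensing receptor PPARγ, at 97.9 ± 8.35 CPM in vehicle and 68.9 ± 5.41 CPM in calcitriol libraries with no overlap (-0.51 ± 0.05, adjusted p = 2.11e-08). The retinoic acid receptor genes did not pass the test, Rarg with -0.17 ± 0.08 (adjusted p = 0.0904) and Rara with 0.08 ± 0.09 (adjusted p = 0.547).

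Genes that make or carry vitamin D were mostly too low to test. Of 9, 2 passed the filter. Dhcr7, the reductase that takes the vitamin D precursor toward cholesterol, fell by 0.83 ± 0.11 (24.1 ± 5.65 to 13.7 ± 1.46 CPM, adjusted p = 1.17e-06), and Pdia3, a protein disulfide isomerase also described as a membrane binder of calcitriol, was at 173.7 ± 12.8 and 176.0 ± 8.58 CPM (adjusted p = 0.776). The activating hydroxylase gene Cyp27b1 had 18 vehicle and 24 calcitriol counts over 11 libraries each, Cyp2r1 12 and 13, and Cyp27a1 26 and 23. The genes of the carrier protein Gc and of the hydroxylase Cyp3a11 had 0 counts in all libraries. Of the hydroxylases on this list and Cyp24a1, only Cyp24a1 passed the filter. It did so through the calcitriol libraries alone, having 0 counts in vehicle libraries.

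Beside Cyp24a1, 17 genes known as calcitriol targets in gut, bone or kidney were listed, and 7 of them passed the filter. Of these, 2 rose, 4 fell and 1 did not pass the test, again beside 16.1% and 15.5% of all genes, with a median log2 change of -0.31. Atp2b1, a plasma membrane calcium pump gene, rose by 0.63 ± 0.06 (218 ± 19.2 to 338 ± 34.1 CPM, adjusted p = 1.22e-09), with no overlap between groups. Tnfsf11, which encodes RANKL, fell by 2.06 ± 0.15 (10.1 ± 1.94 to 2.40 ± 0.658 CPM, adjusted p = 1.11e-11), and Spp1, which encodes osteopontin, by 1.66 ± 0.23 (278 ± 82.7 to 87.2 ± 34.2 CPM, adjusted p = 5.91e-06), both with no overlap. In bone-forming cells these last 2 genes are known to be induced by calcitriol. The intestinal calcium transport genes S100g and Calb1 had 0 counts in all libraries, and Trpv6 had 10 vehicle and 32 calcitriol counts.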

How the data were processed

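The authors deposited 1 table of raw counts by Ensembl gene, whose 22 library columns were all matched to samples by name. A stranded kit for total RNA was used, per the labels' protocols. STAR 2.7.10a, HTSeq 0.13.5 and GRCm38 are named per the submitters' processing notes, with roles and strand setting not given in the sources used here, so reads of overlapping genes on opposite strands may be misassigned. Symbols came from a reference list of gene names, in which 345 identifiers had none, and coordinates and exon lengths from GENCODE release M21. Counts were tested with edgeR 4.0.16 in R 4.3.3 (TMM factors, filterByExpr, robust quasi-likelihood F test, two-sided, no covariate, Benjamini-Hochberg over all 11905 genes, threshold 0.05), and the method was tested on simulated data. Alternatives were limma-voom 3.58.1, DESeq2 1.42.0, other scaling factors, filters, dispersion and a covariate of sex-linked expression, and subsets of libraries. Relations used log2(CPM + 0.5) and, like ratios on counts + 0.5, two-sided permutation tests with 100000 resamples, exact for 9 libraries. Named beside the members were up to 3 genes of each list with the smallest p, and the 4 highest and lowest correlations; Ep300, Kat2b, Snw1, Hdac3 and genes below the filter were named after their values were seen, and some genes of these sets are not reported here. The members, lists and tests were chosen with earlier results of these data known.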

Additional observations from a re-analysis of the deposited data

How the results depend on the processing

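All alternatives were chosen with earlier results of these data known. Leaving out each library in turn kept the call of each of the 8 members. Among the members, calls changed in 3 settings. In the 11 libraries at or below the median depth, which include replicates 1 and 2 of both groups, 1766 genes were called, and Vdr (-1.20, adjusted p = 0.117), Rxra (-0.60, adjusted p = 0.0653) and Ncoa2 (0.20, adjusted p = 0.129) lost their calls. In the libraries above it Ncoa3 lost its call (0.11). Both subsets compare fewer libraries. Of the genes named from lists, Lcor lost its call in both subsets, Carm1 and Crebbp in the shallower and Tbl1x in the deeper one, while Rarg gained one with total count only (-0.24, adjusted p = 0.0113) and without calcitriol replicate 3 (adjusted p = 0.0443). With total count as the only scaling, which moved the median log2 change of all genes from -0.01 to -0.08, Rxrb (-0.16, adjusted p = 0.0292) and Ncor1 (-0.11, adjusted p = 0.0285) were called lower and Ncoa3 (0.10) lost its call, and the cause was not tested. The r of Vdr and Cyp24a1 was 0.51 both without calcitriol replicates 1 and 2 and without the 2 libraries farthest from the median Vdr, which are the same libraries, and that of Vdr and Ncoa2 reversed to 0.074. The log2 difference in Ncoa3 per Ncoa2 ran from -0.109 to -0.062 with single libraries left out, and passed the threshold (adjusted p = 0.042 by permutation test) without vehicle replicate 5. Over all settings 1766 to 4197 genes were called, 3844 by limma-voom and 3944 by DESeq2. With mutually closest libraries of a group summed, 2881 genes were called, among them the same 5 members. No paired analysis was possible because the labels give no replicate numbers. Depth limits the Cyp24a1 bound, which ran from 406 to 861-fold over the settings, and the precision of Vdr, with 416 counts in all calcitriol libraries.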

Other observations

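The genes whose levels followed Vdr most closely were ranked by Pearson's r over all 22 libraries after each group's mean was subtracted, among 10331 genes averaging 2 CPM or more. The libraries share cells, depth and replicates 1 and 2 as sources of variation, so these values are descriptions. Among the highest were Rai14, an actin-binding protein gene, at 0.90, Grp, which encodes gastrin-releasing peptide, at 0.89 and Sytl3 at 0.89. Without replicates 1 and 2 of both groups (n = 18) they were between 0.61 and 0.64. Like Vdr, Rai14 (94.2 to 24.3 CPM, log2 change -1.99 ± 0.17, adjusted p = 5.22e-09) and Grp (65.5 to 7.93 CPM, -3.22 ± 0.44, adjusted p = 6.25e-06) fell with calcitriol in edgeR's test, whereas Sytl3 did not pass it (-0.15 ± 0.18, adjusted p = 0.565) except without the 4 libraries (-0.30, adjusted p = 0.0245). Among the lowest were the condensin subunit gene Ncapd3 at -0.91, the mRNA export factor gene Nxf1 at -0.91 and Psip1 at -0.89, and these were between -0.81 and -0.73 without the 4 libraries.

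Over the 11 calcitriol libraries, the genes most like Cyp24a1 were Moxd1 at r = 0.97, Dhrs3 at 0.97, Myo1f at 0.96 and Adam8 at 0.95, and without replicates 1 and 2 (n = 9) they were at 0.82, 0.63, 0.48 and 0.61. Dhrs3, which encodes a retinaldehyde reductase, also rose with calcitriol, from 1.41 to 11.8 CPM (3.002 ± 0.28, edgeR adjusted p = 7.96e-09), as did Myo1f (0.68 ± 0.09, adjusted p = 2.23e-06) and Adam8 (0.63 ± 0.09, adjusted p = 5.27e-06). Moxd1 rose as well, from 3.50 to 6.85 CPM (0.92 ± 0.27, edgeR adjusted p = 0.0111), and lost its call in 2 of 35 alternative settings. The most opposite were Car2 at -0.96, Map3k2 at -0.96, Shh at -0.96 and Ankrd13c at -0.96. Without replicates 1 and 2 (n = 9) they were at -0.62, -0.81, -0.63 and -0.69.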
